A study of Mus musculus with 6 samples.

Results

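The cytosolic ribosomal protein genes encode the protein part of the ribosome that translates nuclear mRNAs. Protein-coding genes were taken by symbol, as Rps or Rpl followed by a number together with Rpsa, Rplp0, Rplp1 and Rplp2, and S6 kinases and pseudogenes were left out. This gave 86 of the 54838 genes in the count tables. Of the 86, 77 are standard ribosomal proteins, with 31 of the small subunit, 43 of the large subunit and 3 of the P stalk. Another 8 are paralogs of a standard gene, and Rps19bp1 matches by symbol only, since it encodes a nucleolar protein that binds Rps19.

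RNA was sequenced from neutrophils that had been isolated by fluorescence-activated sorting. They came from mouse corneas taken 24 h after Pseudomonas aeruginosa, as its strain PAO1, had been given. The mice were Il1a-/-, which lack the inflammatory cytokine IL-1 alpha, or wild type (WT), with 3 libraries per genotype. All 6 libraries came from infected corneas, so no uninfected level was measured, and the labels give neither strain nor age nor which animals a library came from. The p-values therefore measure the spread between these libraries, which the labels call biological replicates, and in bulk RNA fewer cells of a type and less RNA per cell cannot be told apart. The comparison asks how loss of IL-1 alpha changes gene expression of neutrophils in the infected cornea.

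A ribosome holds 1 copy of nearly every ribosomal protein, so cells make these proteins in matched amounts. In vertebrates their mRNAs start with a C followed by a run of pyrimidines, the terminal oligopyrimidine or TOP tract, through which growth signals that pass by mTOR and the binding protein Larp1 set how fast they are translated. Mature neutrophils leave the bone marrow after division has ceased and carry few ribosomes compared with their precursors. A change in translation of these mRNAs would not be seen in mRNA counts.

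The start sites are shown because the TOP tract is the feature that defines this gene family at its 5′ end. The 25 bases from 10 before to 15 after the RefSeq start (GRCm38.p6) are printed 5′ to 3′ on the gene's strand. The 6 genes were picked for having a pyrimidine tract that begins with C and lies whole in the window, going down from the highest level per kb, so other genes as high or higher, such as Rpl10 and Rpl41, are not shown. Capitals mark the tract.
Rps27, chr3:90213634-90213658, minus strand: cgctttcgCTCCTTTCCggcggtga
Rps9, chr7:3704031-3704055, plus strand: cttgtCTCTCTTTgtctcgggcctg
Rpl18, chr7:45718061-45718085, plus strand: ctcgcaggccgCTCTTTCCCCgccc
Rpl34, chr3:130730384-130730408, minus strand: tccctgacgtaCTTCCTgtccggcg
Rpl35a, chr16:33056472-33056496, plus strand: gcttgCCTTCCTCTTTCCgccatct
Rps2, chr17:24720053-24720077, plus strand: gtcgagatctcgcgCTTCTTggagc
Of the 77 standard genes, 57 had an entry in the RefSeq promoter table. A tract of at least 5 pyrimidines that starts with C within 10 bases of an annotated start, on the gene's strand, was present in 33 of them (57.9%), against 32.6% of all 27025 genes in the table. The word CCGGAAG, searched on both strands from 250 bases before to 50 after the start, was present in 24 of the 57 (42.1%), against 9.93% of all genes. AAGATGGC, searched the same way, was present in 5 of the 57 (8.77%), against 3.19% of all genes, and both words can share the letters AAG. These matches describe letters at annotated start sites and do not show where transcription began in neutrophils.

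Rps27 and its relatives are shown because Rps27, the gene with the highest level per kb, has a copy with the same coding sequence. The first 60 coding bases (GENCODE M21 transcripts, GRCm38) are printed with capitals where a base differs from Rps27.
Rps27: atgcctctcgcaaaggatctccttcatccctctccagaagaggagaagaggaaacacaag
Rps27rt: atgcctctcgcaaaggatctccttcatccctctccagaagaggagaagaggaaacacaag
Rps27l: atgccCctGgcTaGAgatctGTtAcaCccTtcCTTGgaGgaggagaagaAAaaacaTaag
Rps27 lies on chromosome 3 (90212522 to 90213651), while Rps27rt (114982366 to 114982739) and Rps27l (66946086 to 66949516) lie on chromosome 9. Rps27rt, a retrotransposed copy, differs from Rps27 at 0 of 255 coding bases, so the coding reads of the pair cannot be told apart. Rps27l, a separate paralog that p53 induces, differs at 61 of 255 bases (76.1% identity).

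The genotype check came first. Il1a had 2.89, 5.36 and 5.15 CPM in Il1a-/- neutrophils, against 5111, 6189 and 8768 CPM in WT neutrophils, so every library carried the Il1a level of its label (CPM, counts scaled to the size of the library). Totals lay between 22855676 and 33626008 gene counts per library, of which 27062 to 41622 fell on the 86 genes. Neutrophil markers were abundant, as the label has it. S100a9, a calcium-binding alarmin subunit, had 13006, 12558 and 14285 CPM in Il1a-/- and 13769, 15645 and 12935 CPM in WT neutrophils. S100a8 and Lcn2 were the next most abundant neutrophil markers. Monocyte and macrophage markers moved with genotype. Summed over 18 markers, they reached 1084, 1027 and 1070 CPM in Il1a-/- and 889, 926 and 902 CPM in WT neutrophils, with groups that did not overlap. The log2 fold change was above 0 for 14 of their 15 tested genes, with a median of 1.597. Of the 15, 8 had an unadjusted p under 0.05 (edgeR, 5.99% of all genes), 8 had groups that did not overlap (11.6% of all genes), and 0 passed an adjusted p of 0.05. The mean summed level in Il1a-/- was 1.17 times that in WT. Cd68, Lyz2 and Csf1r were the most abundant of the list. C1qb and Folr2 are named outside the rule given below. C1qb, a complement gene of macrophages, had 2.10, 8.29 and 4.01 CPM in Il1a-/- and 0.972, 1.25 and 0.739 CPM in WT neutrophils, while Folr2 was at 0 in every library. The part of monocytes and macrophages in the values below was not tested. Corneal epithelium markers summed to 29.4, 137.4 and 40.1 CPM in Il1a-/- and 23.03, 164 and 104 CPM in WT neutrophils, which overlap. The second Il1a-/- library stood apart from the others on the first principal component of log2 CPM, at 67.3 against -32.9 to 2.10 (32.1% of the variance). Values that move most without it are given both ways.

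Ribosomal protein mRNAs held a small share of the gene counts. Reads that fit several places or fall in more than 1 gene model are left out of these counts. The mRNA share itself may therefore be larger, which was not tested. All 86 genes together held 0.128%, 0.128% and 0.118% of the gene counts in Il1a-/- neutrophils, against 0.141%, 0.131% and 0.1098% in WT neutrophils. The groups overlapped, with 0.125% ± 0.0057 in Il1a-/- and 0.127% ± 0.016 in WT (SD, n = 3 each, exact two-sided permutation p = 0.8). Averaged over the 6 libraries the summed level was 1259 CPM, and 114 single genes each exceeded it. Fth1, the ferritin heavy chain, had 50051 CPM on average. Per kb of exon, which allows genes of different length to be compared, the 75 tested standard genes nevertheless stood above most others. Their median was 12.4 CPM per kb, against 2.38 CPM per kb for the 9911 tested protein-coding genes. That median was exceeded by 66 of the 75, and 11 stood at or above its 90th percentile of 42.02 CPM per kb.

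Levels within the family were far from even. Mean levels of the 77 standard genes ran from 0.330 to 133 CPM with a median of 8.46 CPM. Under 5 CPM lay 20 genes, 3 of them under 1 CPM, and 18 lay at 20 CPM or more. The 5 most abundant of all 86 held 31.2% of the summed level and the 10 most abundant held 45.9%.

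**Figure D1:**
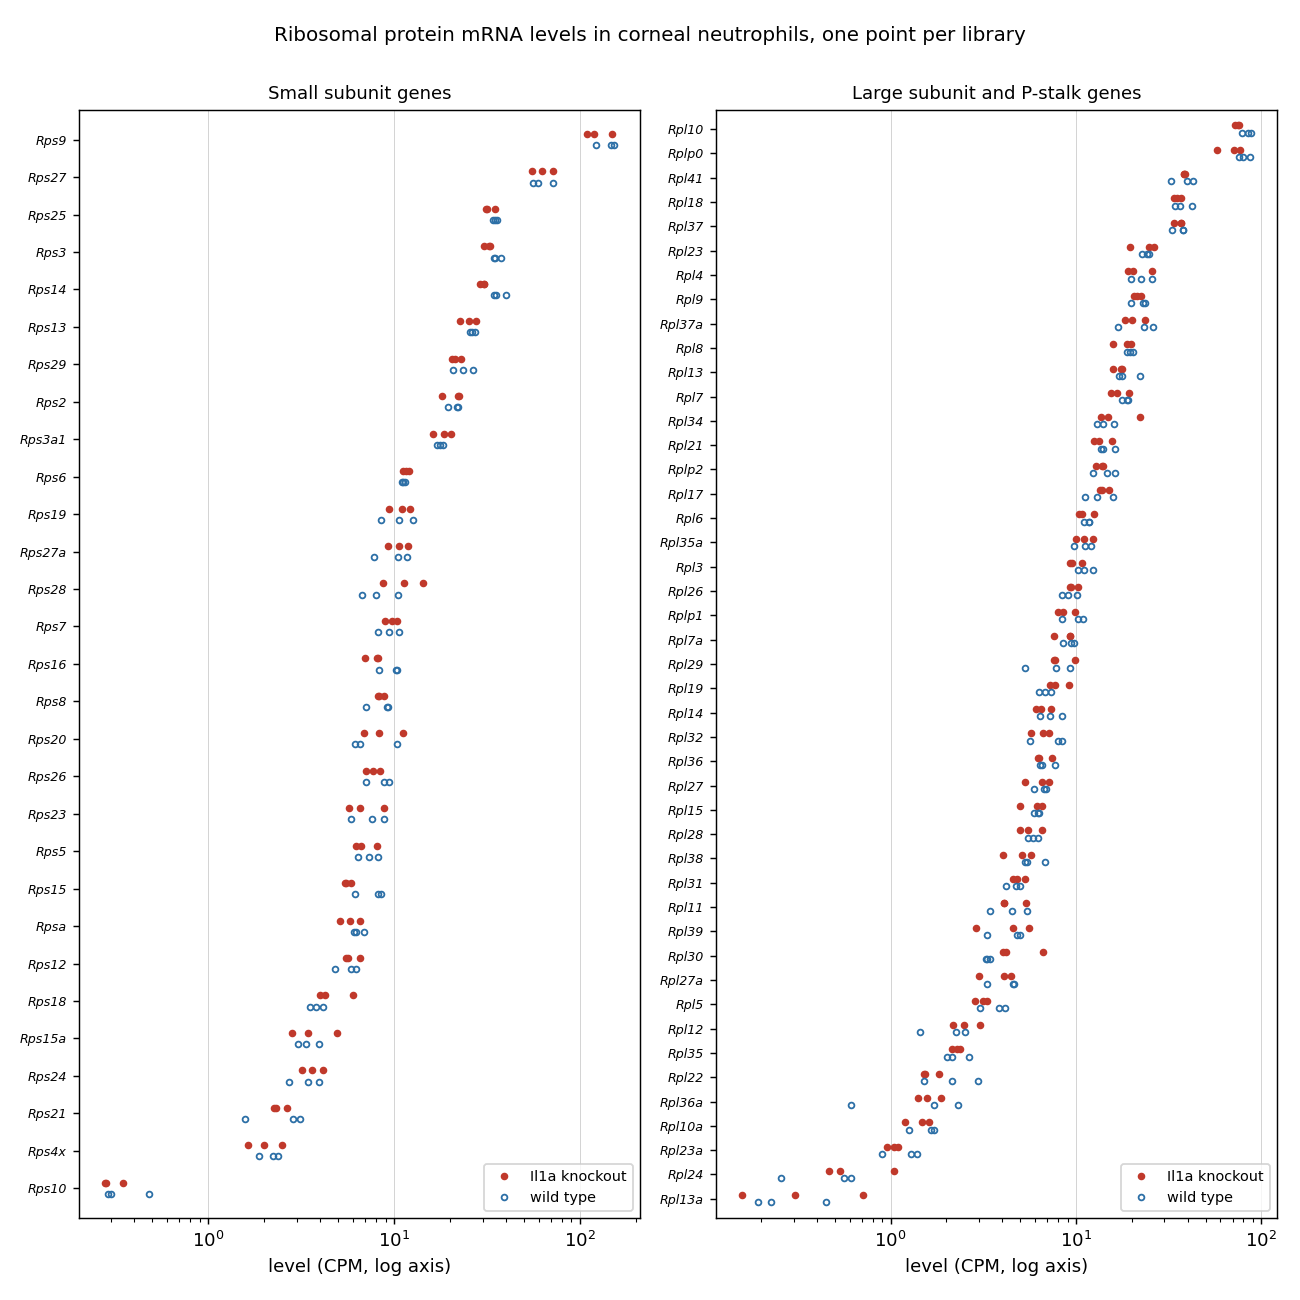
Level of 74 of the 77 standard ribosomal protein genes in CPM on a log axis, with 1 point per library (filled red, Il1a-/-, upper row of each gene; open blue, WT, lower row), small-subunit genes on the left and large-subunit and P-stalk genes on the right, ordered by mean level. Rps9 leads at 133 CPM on average and Rps10 and Rpl13a lie under 1 CPM, while the genotypes overlap for most genes.

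Among small-subunit genes, Rps27 and Rps9 had the highest levels per kb, at 181.9 and 177.4 CPM per kb over the 6 libraries. Rps9, a protein at the mRNA entry side of the subunit, had 148, 119 and 109 CPM in Il1a-/- neutrophils, against 147, 154 and 122 CPM in WT neutrophils. The lowest values were in the second and the third Il1a-/- library, and the groups overlapped (log2 fold change -0.16, 95% interval -0.49 to 0.16). Leaving out 1 library moved it to between -0.31, without the first Il1a-/- library, and -0.07, without the third. Rps27, a zinc-finger protein of the subunit, had 55.4, 71.9 and 62.2 CPM in Il1a-/- and 71.9, 59.4 and 55.8 CPM in WT neutrophils. Its highest values came from 1 library of each genotype, and the log2 fold change was 0.02 (-0.31 to 0.35). Rps27rt, with identical coding sequence, had 2.83, 3.51 and 2.97 CPM in Il1a-/- and 3.89, 3.60 and 2.96 CPM in WT neutrophils. The next genes per kb were Rps25 (58.5), Rps29 (57.9), Rps14 (55.6), Rps13 (43.9), Rps28 (26.0) and Rps2 (21.04 CPM per kb). Rps25, which some viral internal ribosome entry sites need, had 31.3, 34.8 and 31.5 CPM in Il1a-/- and 34.996, 34.2 and 35.8 CPM in WT neutrophils, again with overlap.

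Large-subunit genes were led by Rpl10, a late-joining protein near the catalytic centre, at 98.9 CPM per kb. Rpl10 had 72.2, 75.6 and 74.5 CPM in Il1a-/- neutrophils, against 88.3, 84.9 and 78.4 CPM in WT neutrophils. Every Il1a-/- value lay below every WT value, and the difference did not pass the test (log2 fold change -0.18, interval -0.43 to 0.08, edgeR adjusted p = 0.925). Rpl41, the smallest ribosomal protein, followed at 70.6 CPM per kb, with 38.9, 38.4 and 38.3 CPM in Il1a-/- and 42.8, 39.5 and 32.6 CPM in WT neutrophils. The Il1a-/- values lay inside the WT range. Rpl18 (53.6), Rpl37 (43.1), Rpl37a (38.1), Rpl34 (32.6) and Rpl9 (29.4 CPM per kb) were among the next.

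The P stalk is the arm that recruits elongation factors, with Rplp0 as its base and Rplp1 and Rplp2 as its tips. Rplp0 had 76.5, 71.2 and 57.6 CPM in Il1a-/- and 79.3, 86.4 and 75.7 CPM in WT neutrophils. The third Il1a-/- library was lowest and the groups overlapped by 1 library. Rplp1 had 8.51, 9.86 and 7.98 CPM in Il1a-/- and 10.9, 10.2 and 8.45 CPM in WT neutrophils. Rplp2 had 13.7, 13.9 and 12.8 CPM in Il1a-/- and 14.7, 16.2 and 12.4 CPM in WT neutrophils. Per kb the base stood at 54.8 CPM per kb, against 18.7 for Rplp1 and 14.5 for Rplp2, although each stalk carries more tip than base protein. The log2 fold changes of the 3 genes were -0.23, -0.16 and -0.10, none of which passed the test (smallest edgeR adjusted p = 0.909). That of Rplp0 was -0.12 without the third Il1a-/- library.

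At the low end, Rpl13a and Rps10 did not pass the expression filter. Rpl13a, known in human myeloid cells as part of a complex that silences inflammatory mRNAs, had 0.157, 0.708 and 0.305 CPM in Il1a-/- and 0.449, 0.225 and 0.193 CPM in WT neutrophils. Rps10 had 0.283, 0.277 and 0.349 CPM in Il1a-/- and 0.299, 0.289 and 0.482 CPM in WT neutrophils. In the annotation 35.4% of the exon bases of Rpl13a and 28.7% of those of Rps10 are shared with another gene model, and the counter leaves out reads that fall in more than 1 model. For Rps10 the other models are Gm15420 and RPS10-NUDT3. The part of this overlap in the low counts was not tested. Among tested genes the lowest per kb were Rps15a (0.702), Rpl24 (0.855), Rpl36al (1.56) and Rpl5 (1.66 CPM per kb). The transcript used for Rps15a has 5130 bases, on which its level per kb depends, and 47.0% of the exon bases of Rpl24 are shared with the gene model Gm28037.

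No ribosomal protein gene passed the test between genotypes. Of the 82 tested genes, 0 rose and 0 fell at an adjusted p of 0.05 (edgeR quasi-likelihood test), while 12 of all 11924 genes did (0.101%, with 9 or 0.0755% higher and 3 or 0.0252% lower in Il1a-/-). At an unadjusted p of 0.05, 0 of the 82 passed, against 714 of all genes (5.99%). DESeq2 also called 0 members, against 0.579% of all genes, and had 1 member, Rps14, at an unadjusted p of 0.05 (6.18% of all genes). Non-overlapping groups were seen in 8 of the 82 (9.76%), close to the 11.6% of all genes.

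Fold changes were narrow. The median log2 fold change of the 82 was -0.05 (all genes 0.0045, and -0.13 for the members tested without the second Il1a-/- library), with 31 above 0 and 51 below, and the quartiles lay at -0.13 and 0.06, against -0.20 and 0.24 over all genes. Under 5 CPM lay 6262 of the 11924 tested genes but 23 of the 82, so these quartiles are not matched for level. The whole range of the 82 was -0.44 to 0.57, and 69 of them lay within 0.25 of 0. Small-subunit genes split 14 above and 16 below 0 (median -0.01), large-subunit genes 14 and 28 (median -0.04), and paralogs 3 and 3 (median -0.07). These counts describe the genes and are not independent of each other.

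The intervals say how large a change could have been missed. For 41 of the 82 genes the 95% interval ended short of a 1.5-fold change both up and down, and for 75 (91.5%) it ended short of a 2-fold change. Precision followed the level. The median half-width on the log2 scale was 0.69 for the 23 genes under 5 CPM, 0.46 for the 40 genes from 5 to 20 CPM and 0.32 for the 19 genes at 20 CPM or more. Over all tested genes it was 0.70, and within the same level bands it was 1.19, 0.49 and 0.32.

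**Figure D2:**
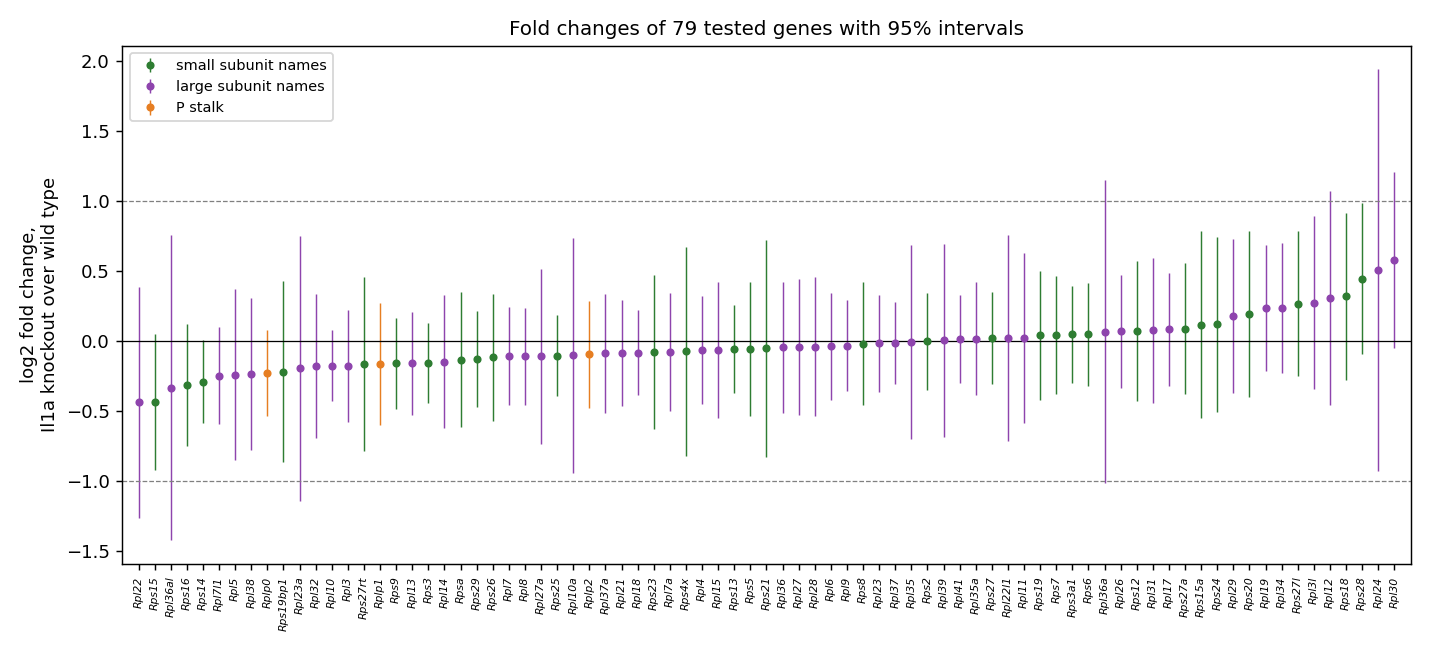
Log2 fold change of Il1a-/- over WT neutrophils with its 95% interval for 79 of the 82 tested genes, ordered by fold change and coloured by subunit; dashed lines mark a 2-fold change in either direction. The values run from -0.44 to 0.57, every interval shown includes 0, and 72 of the 79 stay within the dashed lines.

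The genes with the smallest p in the lower direction were Rps14, Rps15, Rplp0, Rps16, Rpl7l1 and Rpl10. Rps14, whose loss underlies the anaemia of a human myelodysplastic syndrome, had 30.3, 30.3 and 28.9 CPM in Il1a-/- neutrophils, against 39.9, 35.2 and 34.5 CPM in WT neutrophils. All Il1a-/- values were below all WT values, with a log2 fold change of -0.29 (interval -0.59 to 0.0025, edgeR adjusted p = 0.841). Rps15, needed for export of the small subunit from the nucleus, had 5.50, 5.45 and 5.89 CPM in Il1a-/- and 8.52, 8.17 and 6.14 CPM in WT neutrophils. The groups did not overlap, but the third WT library lay near the Il1a-/- values (log2 fold change -0.44, interval -0.93 to 0.05, edgeR adjusted p = 0.867). Rps16, whose tail reaches the tRNA in the decoding site, had 8.10, 8.19 and 6.94 CPM in Il1a-/- and 10.4, 10.3 and 8.29 CPM in WT neutrophils. Its groups did not overlap either.

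In the higher direction the smallest p belonged to Rpl30, Rps28, Rps18, Rpl19, Rps27l and Rpl34. Rpl30, which in yeast controls splicing of its own transcript, had 4.21, 6.62 and 4.01 CPM in Il1a-/- neutrophils, against 3.29, 3.25 and 3.44 CPM in WT neutrophils. The groups did not overlap and the second Il1a-/- library was highest (log2 fold change 0.57, interval -0.05 to 1.20, edgeR adjusted p = 0.866). Without that library the log2 fold change was 0.30, and with summed strand columns it was 0.38. Part of Rpl30 (24.8% of its exon bases) lies in another gene model, and its count summed over the strand columns was 1.6 times the count used. That sum can hold reads of an overlapping gene, since the libraries do not mark strand. Rps28 had 8.73, 11.3 and 14.2 CPM in Il1a-/- and 10.5, 7.98 and 6.75 CPM in WT neutrophils, which overlap (log2 fold change 0.44, interval -0.10 to 0.98). It was 0.25 without the third Il1a-/- library and 0.30 without the third WT library. Rps18 had 4.24, 6.04 and 3.97 CPM in Il1a-/- and 3.78, 4.15 and 3.53 CPM in WT neutrophils, and its log2 fold change of 0.32 was 0.09 without the second Il1a-/- library. Rpl19, which forms a bridge between the subunits, had 7.22, 7.73 and 9.16 CPM in Il1a-/- and 6.84, 7.37 and 6.30 CPM in WT neutrophils (log2 fold change 0.23, and 0.13 without the third Il1a-/- library). Rpl34 had 14.9, 22.02 and 13.7 CPM in Il1a-/- and 13.05, 16.02 and 14.04 CPM in WT neutrophils. Its log2 fold change of 0.23 rests on the second Il1a-/- library, without which it was -0.02.

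The remaining genes whose groups did not overlap included Rps3 and Rpl3l, named after their values were seen. Rps3, a protein of the mRNA entry channel and 1 of only 3 standard genes with no near-identical copy, had 32.3, 33.0 and 30.4 CPM in Il1a-/- and 37.4, 34.7 and 34.8 CPM in WT neutrophils. The log2 fold change was -0.16 (interval -0.44 to 0.13, edgeR adjusted p = 0.944). A few genes with known roles outside the ribosome were also looked up after the values were seen. Rps6, the protein that S6 kinases phosphorylate, had 11.6, 11.1 and 12 CPM in Il1a-/- and 11.1, 11.5 and 11.05 CPM in WT neutrophils. Rpl5, which with Rpl11 binds the p53 regulator Mdm2, had 3.33, 2.86 and 3.14 CPM in Il1a-/- and 3.03, 3.86 and 4.15 CPM in WT neutrophils. Rps19, the gene most often mutated in Diamond-Blackfan anaemia, had 10.99, 12.2 and 9.38 CPM in Il1a-/- and 10.7, 12.6 and 8.45 CPM in WT neutrophils. All these groups overlapped.

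Paralogs replace a standard protein in some ribosomes or have roles in assembly. Rpl7l1, an assembly factor related to Rpl7, was the most abundant, at 43.9, 32.1 and 34.1 CPM in Il1a-/- and 39.0, 45.9 and 46.1 CPM in WT neutrophils (log2 fold change -0.25, interval -0.60 to 0.10, and -0.41 without the first Il1a-/- library). Rps27l had 6.38, 5.51 and 6.11 CPM in Il1a-/- and 4.90, 5.89 and 4.21 CPM in WT neutrophils (log2 fold change 0.26, and 0.15 without the third WT library). Rpl3l, a striated-muscle paralog of Rpl3, had 3.45, 3.45 and 4.93 CPM in Il1a-/- and 3.03, 3.41 and 3.34 CPM in WT neutrophils. It has no near-identical copy and no overlapping gene model. Rpl22l1 had 2.17, 2.86 and 4.49 CPM in Il1a-/- and 2.95, 3.22 and 3.18 CPM in WT neutrophils. Rpl36al, whose coding sequence is 87.9% identical to that of the X-linked Rpl36a, had 0.754, 0.554 and 0.873 CPM in Il1a-/- and 1.01, 0.965 and 0.771 CPM in WT neutrophils. The testis paralogs were at or near 0: Rpl10l had 0 counts in every library, and Rpl39l had 0.0942, 0.154 and 0 CPM in Il1a-/- and 0.0748, 0.0322 and 0.193 CPM in WT neutrophils. Rps19bp1 had 2.80, 3.91 and 3.97 CPM in Il1a-/- and 3.85, 5.18 and 3.41 CPM in WT neutrophils.

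Summed levels repeated the gene-by-gene result. The 86 genes summed to 1219, 1276 and 1181 CPM in Il1a-/- neutrophils, against 1353, 1339 and 1187 CPM in WT neutrophils. The third WT library lay at the level of the lowest Il1a-/- library, so the groups overlapped (1225 ± 47.7 CPM in Il1a-/- and 1293 ± 92.0 CPM in WT, SD, n = 3 each; ratio 0.948). The exact two-sided permutation p was 0.3, where 3 libraries against 3 cannot give a p below 0.1. For sums by subunit all 86 genes were split by symbol, with paralogs and Rps19bp1 included and the P stalk counted as large. Small-subunit symbols summed to 532 ± 21.5 CPM in Il1a-/- and 559 ± 48.2 CPM in WT. Large-subunit symbols summed to 693 ± 26.9 CPM in Il1a-/- and 734 ± 44.6 CPM in WT. The ratio of small to large was 0.778, 0.763 and 0.759 in Il1a-/- and 0.786, 0.756 and 0.738 in WT neutrophils (exact permutation p = 0.8). On the log2 scale this ratio changed by 0.013 from WT to Il1a-/-, and by 0.003 with standard genes only.

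**Figure D3:**
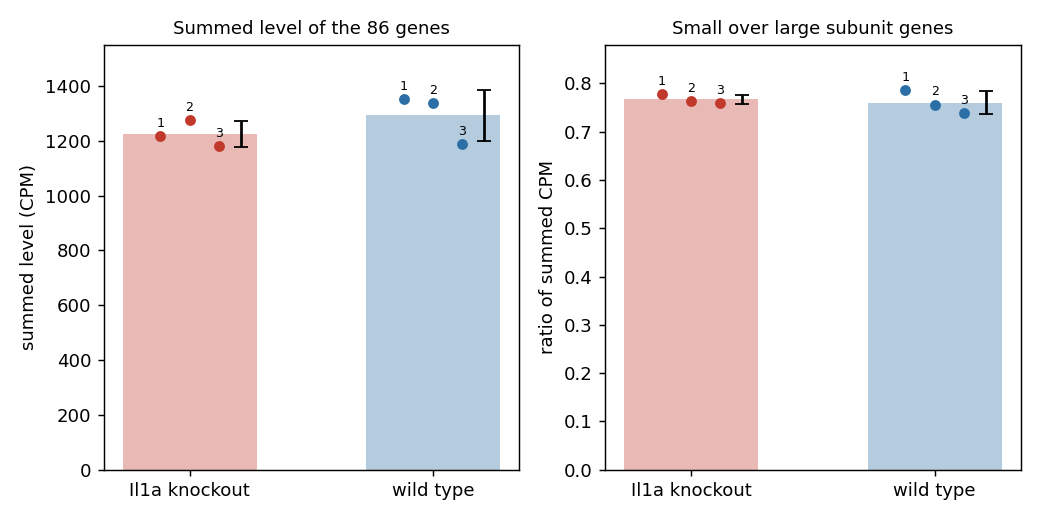
Summed level of the 86 genes in CPM (left) and ratio of summed small-subunit to large-subunit levels (right) for Il1a-/- and WT neutrophils, with bars for the mean, error bars for the SD of 3 libraries and numbered points for the libraries. The summed level runs from 1181 to 1276 CPM in Il1a-/- and from 1187 to 1353 CPM in WT, and the ratios overlap. For the ratio all 86 genes were split by symbol, with paralogs and Rps19bp1 included and the P stalk counted as large.

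Libraries of 1 genotype differed by as much as the genotypes. The deviation of each of the 75 tested standard genes from its own mean over the 6 libraries had a median of -0.05, 0.06 and -0.08 on the log2 scale in the Il1a-/- libraries, and of 0.11, 0.07 and -0.11 in the WT libraries. Between the first and the third WT library, 60 of the 77 standard genes were higher in the first, with a median difference of 0.20 on the log2 scale, against 0.05 over all genes. The third WT library held the lowest of the 3 WT values for 55 of the 75 tested genes, and the second Il1a-/- library held the highest of the 3 Il1a-/- values for 43. The family moved together only loosely. Over the 6 libraries the median Pearson correlation between pairs of genes was 0.265, and 69.2% of pairs were above 0, as a description of libraries that differ in depth.

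**Figure D4:**
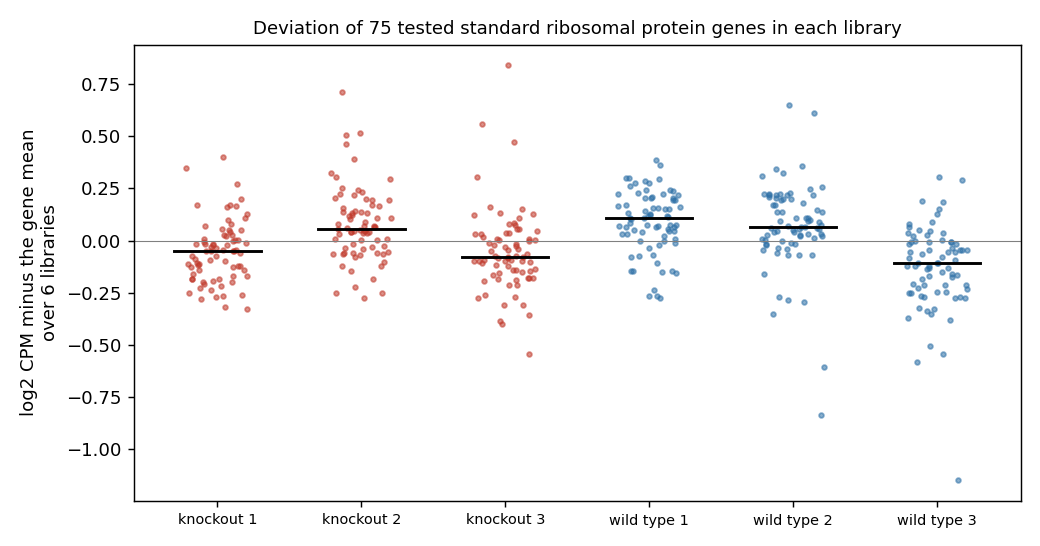
Deviation of each of the 75 tested standard genes from its mean over the 6 libraries, in log2 CPM, with 1 column of points per library (red, Il1a-/-; blue, WT) and a black line at the median. The first WT library has the highest median, at 0.11, and the third WT library the lowest, at -0.11, so the columns of 1 genotype spread over the range of both.

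Near-identical copies limit what a count means here. Of the 77 standard genes, 74 had at least 1 other annotated gene that matched 80% or more of the coding sequence at 95% identity or more. Gene models that overlap the gene itself were not left out. The median was 6 copies, with as many as 57 for Rpl21. In all there were 574 copies, of which 548 are annotated pseudogenes. A read that fits several places is not counted by a counter of uniquely placed reads. The share of 75-base windows of the transcript that occur in no other gene had a median of 49.7%. It was 1.48% for Rps27 and 8.14% for Rpl10, which lead their subunits per kb, while every window of Rps3 was unique.

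Level did not follow that share. The windows were matched exactly to annotated transcripts of other genes, overlapping models included. The share therefore does not give the number of reads lost, and the part of copies in the levels was not tested. The 21 genes with at least 70% unique windows had a median of 14.4 CPM per kb, the 34 genes between 30% and 70% had 10.8, and the 22 genes under 30% had 12.03 CPM per kb. Spearman's rho between the share and the level was 0.085 across the 77 genes, which are not replicates. Median log2 fold changes in the same order were -0.07, -0.04 and -0.02. The 7 members with no copy summed to 70.5, 69.9 and 71.5 CPM in Il1a-/- and 77.9, 76.0 and 71.2 CPM in WT neutrophils, which overlap (exact two-sided permutation p = 0.2). Shared gene models bear on the counts of single genes. Rpl23a shares 62.3% of its exon bases, mostly with Tlcd1, and its count summed over the strand columns was 12.7 times the count used. For Rpl35, which overlaps Arpc5l, that ratio was 2.83, and for Rpl22l1 it was 2.28. The libraries do not mark strand, so such a sum can hold reads of an overlapping gene on the other strand. These ratios therefore do not give the reads that a gene lost.

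**Figure D5:**
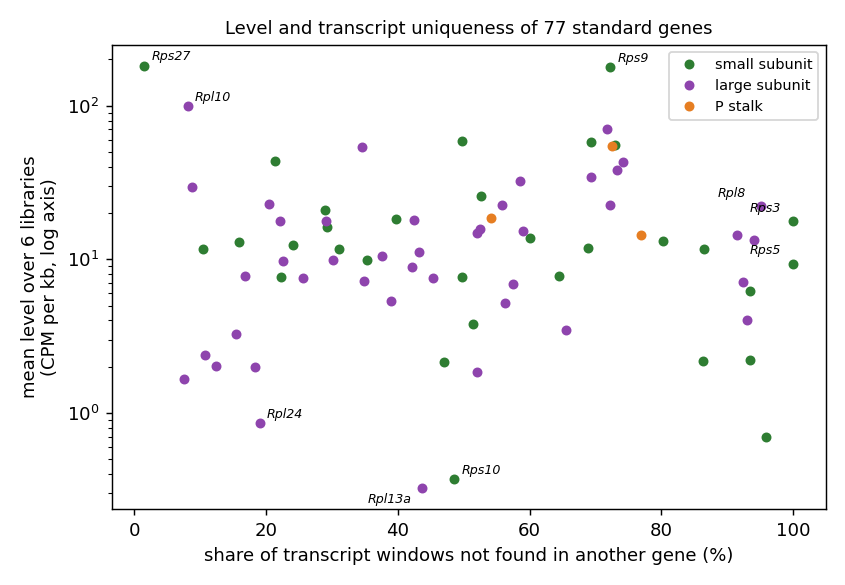
Mean level over the 6 libraries in CPM per kb (log axis) against the percentage of 75-base transcript windows found in no other gene, for the 77 standard genes coloured by subunit. Rps27 and Rpl10 combine high levels with almost no unique windows, Rps9 is as high with most windows unique, and the points show no evident slope (Spearman's rho 0.085).

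Named pseudogenes of the family held few counts. Of 294, 147 were at 0 in every library, and together they reached 24.8, 30.5 and 33.4 CPM in Il1a-/- and 32.8, 23.3 and 24.2 CPM in WT neutrophils. Of the 18 tested, 0 passed the test (edgeR), also at an unadjusted p of 0.05. Standard genes were also split by a match to the C-led pyrimidine tract within 10 bases of an annotated start. Median log2 fold changes were -0.01 with a match (33 genes) and -0.07 without (24 genes), read over the tested genes. Median levels were 7.65 and 18.2 CPM per kb. A gene without a match may still have a TOP tract at the start used in neutrophils.

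Other parts of the translation machinery were read from lists chosen by function. Of 78 mitochondrial ribosomal protein genes, which serve the organelle's own ribosomes, 66 were tested and 0 passed the test (0.101% of all genes did), with 40 above and 26 below 0 and a median log2 fold change of 0.07. Their smallest p belonged to Mrpl50, Mrpl21, Mrpl45 and Mrpl15 (smallest edgeR adjusted p = 0.867). Of 3 ribosomal components outside the symbol rule, Fau and Rack1 among them, 0 passed. Fau, a ubiquitin-like fusion that yields a small-subunit protein, had 69.7, 72.1 and 67.6 CPM in Il1a-/- and 74.4, 72.1 and 68.7 CPM in WT neutrophils.

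Among 10 elongation and termination factors 0 passed at an adjusted p of 0.05, with 3 above and 7 below 0. Eif5a, the hypusine-carrying factor that helps ribosomes through difficult peptide bonds, came nearest. It had 360, 347 and 369 CPM in Il1a-/- neutrophils, against 610, 678 and 513 CPM in WT neutrophils. The groups did not overlap, with a log2 fold change of -0.74 (interval -1.02 to -0.47, edgeR adjusted p = 0.0792). Abce1, Eef2k and Eef1b2 had the next smallest p, and their groups overlapped.

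Of 40 initiation factors 0 passed, with 14 above and 26 below 0 (median log2 fold change -0.03). Eif3j1, a subunit of the factor that holds the small subunit open for mRNA, had 8.89, 7.70 and 6.98 CPM in Il1a-/- and 14.5, 12.9 and 13.4 CPM in WT neutrophils. Its groups did not overlap (log2 fold change -0.79, interval -1.19 to -0.39, edgeR adjusted p = 0.306), and it has a close paralog, Eif3j2, with which reads may be shared. Eif4g2, Eif2b4 and Eif4h followed by p. Of 55 genes of ribosome assembly and RNA polymerase I, 50 were tested and 0 passed, with 25 above and 25 below 0. Rrp9, Polr1c, Nop58 and Polr1a had the smallest p there (smallest edgeR adjusted p = 0.786).

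Of 20 growth regulators that set ribosomal protein synthesis 0 passed, with 8 above and 12 below 0. Rptor, the scaffold of the mTOR complex that signals to TOP mRNAs, had 4.05, 3.57 and 3.32 CPM in Il1a-/- and 5.98, 6.63 and 4.79 CPM in WT neutrophils, without overlap (log2 fold change -0.67, interval -1.22 to -0.11, edgeR adjusted p = 0.760). Larp1, the TOP-binding repressor, had 13.1, 19.7 and 19.2 CPM in Il1a-/- and 12.9, 13.6 and 14.2 CPM in WT neutrophils, which overlap. Tsc2 and Rps6kb1 were the other regulators with a small p. Of 22 other TOP mRNAs 0 passed (13 above and 9 below 0), with Snhg1 and Nap1l1 first by p. Another list also holds 17 of these 22, so the lists are not separate observations. Of 7 snoRNA host RNAs, whose introns hold guides for ribosomal RNA modification, 5 were tested and 0 passed, all 5 above 0 (median log2 fold change 0.23). Snhg1 had 2.48, 2.43 and 1.96 CPM in Il1a-/- and 1.57, 1.32 and 1.61 CPM in WT neutrophils, and Gas5, Snhg8 and Snhg5 overlapped between genotypes. Of 15 factors for stalled or dormant ribosomes, 12 were tested and 0 passed. Zfp598, which marks collided ribosomes, had 7.73, 11.2 and 8.86 CPM in Il1a-/- and 6.99, 5.89 and 6.17 CPM in WT neutrophils, without overlap (log2 fold change 0.55, interval 0.07 to 1.03, edgeR adjusted p = 0.786). Gtpbp2, Nemf and Rnf10 came next by p.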

How the data were processed

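For 3 Il1a-/- and 3 WT libraries the authors deposited raw counts of reads per gene, as whole numbers, with an unstranded column and a column for each strand in the layout of STAR. The labels' protocols name the RNeasy Micro kit for the RNA and SMART-Seq v4, which does not mark strand, for the libraries, so the unstranded column was used. FastQC 0.11.9, Trimmomatic 0.39 and STAR 2.7.8a, with GRCm38 and mm10, stand in the submitters' processing notes. The annotation release is not given in the sources used here, and GENCODE M21, which held 54809 of the 54838 gene identifiers, supplied symbols, positions and transcripts.

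The robust quasi-likelihood test of edgeR 4.0.16 (R 4.3.3) compared the genotypes in 1 model of all 6 libraries with no other term, after TMM scaling and edgeR's default filter by group (11924 genes). P-values were adjusted over all tested genes by the Benjamini-Hochberg method. CPM used TMM-adjusted library sizes, log2 CPM a prior count of 3, and CPM per kb the exon length of a principal transcript. Summed levels were compared by exact permutation over libraries. Copies were found with blastn 2.17.0. The procedure was checked on simulated counts.

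Genes were named by a rule: the 6 smallest p in each direction, the 8 highest per kb of each subunit, the P stalk, the 4 lowest tested, paralogs, untested members, up to 4 genes per pathway list and the most abundant cell markers. Members, lists and the rule were chosen with earlier results of these data known. Alternatives were DESeq2 1.42.0, limma-voom (limma 3.58.1), other scalings and filters, summed strand columns, a replicate block, a GC and length offset (mgcv 1.9.3), pseudogene counts added to the parent gene, paralogs left out and each library left out. A few genes that the rule or the lists hold are not reported here by name. Figures were drawn with matplotlib 3.10.9.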

Additional observations from a re-analysis of the deposited data

How the results depend on the processing

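The count of members past the threshold was 0 under all 18 alternatives. Over all genes that count lay between 7 (of 12664, without the first WT library) and 185 (of 24151, without a filter on low counts). At an unadjusted p of 0.05 between 0 and 2 members passed, from Rps14, Rps15, Rps28, Rpl30 and Rpl7l1. The share of all genes at that p was 5.99% in the main edgeR test and 6.18% with DESeq2. The median log2 fold change lay between -0.093 and 0.011 under other settings, where library size alone gave 0.011 and the only change of sign, and between -0.134 and -0.015 with a library left out. The log2 ratio of summed levels lay between -0.081 and -0.025 under other settings and between -0.137 and -0.053 with a library left out. The log2 ratio of small to large subunit sums lay between -0.0080 (without the third WT library) and 0.037 with a library left out. Rpl34 lay between -0.016 (without the second Il1a-/- library) and 0.36, and the other members with the smallest p kept their sign. Summed strand columns raised the level of Rpl18, Rpl22l1 and Rps25 and lowered that of Rpl37 beyond the spread. The summed count of Rpl37 was 1.00016 times the count used, so its lower CPM came from the scaling to library size. Rpl9, with a ratio of 1.00026, went from 21.7 to 20.4 CPM, which lay within its spread. Pseudogene counts raised the level of Rps10, Rps15a and Rps2 beyond the spread. Same-numbered libraries deviated together with correlations of 0.14, 0.057 and 0.0034, so the numbers were not taken as pairs, and the replicate block gave 0 calls among members and a median of -0.049. Counting error covers reads, not molecules, and for members under 5 CPM the median half-width of the 95% interval was 0.69 on the log2 scale.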

Other observations

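The tested genes outside the family whose log2 CPM over the 6 libraries came nearest to the mean log2 CPM of the ribosomal protein genes, out of 5603 candidates at 5 CPM or more, were Taok3 (Pearson's r = 0.969), Anp32e (0.964), Tent5a (0.938), Rreb1 (0.938) and Soat2 (0.927). Taok3, a protein kinase, had 7.63, 9.64 and 7.68 CPM in Il1a-/- and 10.4, 9.26 and 5.78 CPM in WT neutrophils. Anp32e, a chaperone that removes a histone variant, had 10.1, 11.3 and 9.90 CPM in Il1a-/- and 10.99, 11.1 and 9.06 CPM in WT neutrophils. With 6 libraries and this many candidates such values describe these libraries only.

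The 10 elongation and termination factors summed to 1192, 1279 and 1195 CPM in Il1a-/- and 1444, 1579 and 1450 CPM in WT neutrophils, of which Eif5a held 359 ± 11.2 CPM in Il1a-/- and 600.2 ± 83.0 CPM in WT (SD, n = 3 each). The growth regulator Mxd1, an antagonist of Myc, was expressed at 5132 to 6662 CPM in Il1a-/- and 5888 to 6358 CPM in WT neutrophils. In every library this was above the summed CPM of the ribosomal protein family as counted here. CPM does not allow for transcript length, and reads that fit several places are left out, so numbers of mRNA molecules were not compared. Mxd1 was looked up after the data were seen.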
